A study of Mus musculus with 94 samples.

Results

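Macrophage segments were compared with tubular segments of the same regions in kidneys of vehicle-treated mice on day 1 after ischemia-reperfusion injury (IRI). The comparison took 12 of the 94 segments of the series, which are 6 of its 46 regions of interest (ROIs). Members were chosen by label: group code I1V, with the IBA1 segment and the PanCK segment that carry the same number paired as a single ROI. The male C57BL/6 mice had received vehicle (DMSO) before unilateral IRI, in which the vessels of the left kidney are clipped and released while the other kidney stays in place. Of the 6 ROIs, 4 lay in the cortex and 2 in the medulla, and the label prefixes E1 and E2 split them into 2 sections with 2 cortical regions and 1 medullary region each. The study states 2 tissue sections per group, but the labels do not say that a prefix marks a single mouse, so the spread between sections may be smaller than that between animals. Used beside these were the same segments of uninjured control kidneys, of IRI kidneys of entospletinib-treated mice on day 1, and of vehicle-treated mice on day 14. Entospletinib inhibits the kinase SYK and was given before the same injury. The study describes the controls of its spatial profiling only as uninjured kidneys. For its experiments in general it names contralateral kidneys or those of healthy mice, and which of these were profiled is not stated.

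Tubular epithelium reabsorbs most of the glomerular filtrate and is the main cell type lost or damaged after ischemia. Renal macrophages lie in the interstitium against the tubules, where they clear debris and dead cells, and monocytes recruited from the blood join them after injury. Digital spatial profiling (DSP) separates such neighbors by staining: within a chosen region, UV light releases the barcodes of hybridized probes separately from each stained area. Here the macrophage area was IBA1+ and the tubular area panCK+, with or without CD10, and glomeruli were avoided. IBA1 is an actin-binding protein of macrophages, panCK antibodies bind the keratins of epithelia, and CD10 is a peptidase of the proximal tubule brush border. The area is an illuminated surface and not a set of isolated cells, and the deposited counts have no background subtracted.

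Each of the 20175 probes is known here only by its identifier, and no file pairs identifiers with genes. The labeled cell types could therefore not be checked against their marker genes, markers of neutrophils, endothelium, and stroma could not be read, and the negative control probes were not identified. The study itself reports a good separation of the 2 compartments by differential expression. It also reports that single-cell RNA sequencing bore out the specificity of the stains. Results are given per probe, and no gene, pathway, or sequence is named. At most 2 identifiers in each direction are printed for a comparison.

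The 6 IBA1 segments held 80096 to 314406 counts (median 186336) and the 6 PanCK segments 1235205 to 6159821. In each region the PanCK segment was deeper, by 5.9 to 41.6 times. A single count was therefore worth far more in CPM (counts scaled to the segment's total) in a macrophage segment, and between 244 and 3179 probes had no count in an IBA1 segment while 0 probes lacked one in any PanCK segment. After random thinning of all 12 segments to 80096 counts, 15979 to 17028 probes had a count in IBA1 segments and 16403 to 17541 in PanCK segments, ranges that overlap. The 1000 highest probes of each thinned segment took 38.5% to 45.5% of the counts in IBA1 segments and 36.5% to 43.3% in PanCK segments. At a common depth, then, the range of probes detected and the concentration of counts overlapped between the compartments.

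The 2 compartments of a region resembled each other about as much as segments of 1 compartment did. Over the 13903 probes with 20 or more counts summed over the 6 IBA1 segments, Pearson's r of thinned log2 CPM between the IBA1 and PanCK segments of 1 region was 0.614 to 0.726 (median 0.673, 6 pairs). The median was 0.599 between an IBA1 segment and the PanCK segments of other regions of its section (12 pairs) and 0.624 with those of the other section (18 pairs). Pairs of IBA1 segments had a median r of 0.639 (15 pairs) and pairs of PanCK segments 0.615 (15 pairs), or 0.699 for PanCK segments of the same region type (7 pairs). Of the 6 IBA1 segments, 3 had their highest r with the PanCK segment of their own region. These values are descriptions across probes, which are not independent, and sampling noise at the common depth lowers all of them.

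The most abundant probe was the same in all 12 segments and differed little within regions. RTS0070220, chosen after its values were seen, had 34196 to 46693 CPM in IBA1 segments (40510 ± 5129, SD, n = 6) and 34600 to 46209 CPM in PanCK segments (39860 ± 4803, SD, n = 6). Its paired log2 differences, IBA1 minus PanCK, lay between -0.02 and 0.09, so regions differed more from each other than the compartments did within a region.

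To find the probes that differed, the regions of a section were summed within each compartment, and edgeR's quasi-likelihood test was run with the section as a block. Calls needed a Benjamini-Hochberg adjusted p under 0.05 together with a log2 fold change above 1 or below -1. Of the 13903 probes with 20 or more IBA1 counts, 386 were called higher in macrophage segments and 134 higher in tubular segments, 520 in all. Over all 20175 probes tested, 599 (2.97%) were called, 386 (1.91%) higher in IBA1 and 213 (1.06%) higher in PanCK. The 6272 probes under 20 IBA1 counts gave 0 calls higher in IBA1 and 79 higher in PanCK, a direction that the count minimum favors, and they are left out below. The minimum thus takes out probes that are low in macrophage segments, so neither the sizes nor the fold changes of the 2 lists can be compared. Log2 fold changes of the 386 probes had their median at 1.34 and reached 4.77, and 44 passed a 4-fold difference. The 134 probes had a median of -1.15 and a lowest of -1.88, and 0 passed 4-fold. The median over all 13903 probes was -0.05.

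Levels of the called probes were read in both compartments, with background not subtracted. The macrophage-high probes had a median level of 67.3 CPM in IBA1 segments and 30.6 CPM in PanCK segments, beside 34.7 and 35.1 CPM for all 13903. The tubule-high probes had 47.1 CPM in IBA1 and 85.3 CPM in PanCK segments. In fraction of all counts, the 386 macrophage-high probes took 2.42% to 8.41% of an IBA1 segment and 1.21% to 4.77% of a PanCK segment, and were above their own region's PanCK segment in 6 of 6 regions. The 134 tubule-high probes took 0.27% to 2.64% of an IBA1 segment and 0.57% to 3.98% of a PanCK segment, and were below in IBA1 in 6 of 6 regions. Across regions both pairs of ranges overlapped. These lists were chosen on the same segments, so these levels describe them and test nothing.

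**Figure D1:**
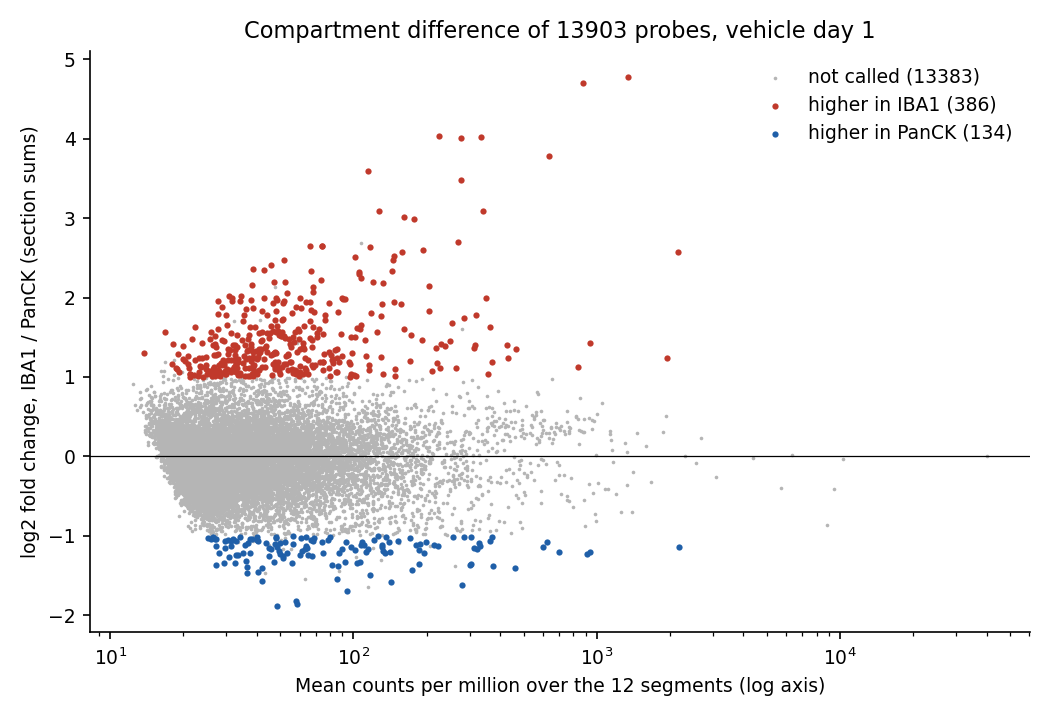
Log2 fold change between the IBA1 and PanCK section sums of vehicle day 1 (vertical axis) against the mean level over the 12 segments in CPM (log axis), 1 point per probe with 20 or more IBA1 counts. The 386 probes called higher in IBA1 (red) reach 4.77 on the log2 scale, and the 134 called higher in PanCK (blue) end at -1.88. The minimum of IBA1 counts limits the fold changes on the PanCK side.

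The call total rested unevenly on the sections. It was 103 without section E1 (91 higher in IBA1, 12 higher in PanCK) and 806 without section E2 (497 and 309), where the spread of the lone section left was taken from the other groups. Leaving out single regions moved it between 394 and 749. With the section dropped from the model it was 329 (308 and 21), and with the 12 segments in the fit and the region as block it was 219 (166 and 53), 202 of them among the 520. With TMM in place of upper quartile normalization the split moved to 468 and 79, as this scaling moved the median log2 fold change of the 13903 probes to 0.06. DESeq2 on the same sums called 442 and 66.

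The mix of regions differed between the compartments and moved with the calls. Medullary regions gave 43.7% and 41.0% of the IBA1 counts of sections E1 and E2, but 18.7% and 11.5% of the PanCK counts. In PanCK segments alone, the 386 macrophage-high probes were higher in the medulla than in the cortex by a median of 1.20 in log2 CPM, and 10 of the 386 were lower there. The 134 tubule-high probes differed by a median of -1.64, with 131 of 134 lower in medullary tubules, while all 13903 probes had a median of 0.12. In the section sums, compartment and region mix are therefore not separate.

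The comparison was therefore repeated with the cortical and the medullary effects estimated apart and weighted equally, an alternative chosen after seeing the data. It called 235 of the 13903 probes, 200 higher in IBA1 and 35 higher in PanCK. Over all 20175 probes, those under 20 IBA1 counts included, 200 (0.991%) were called higher in IBA1 and 83 (0.411%) higher in PanCK. The 200 included 198 (51.3%) of the 386, and the 35 included 21 (15.7%) of the 134. In PanCK segments, the 200 were still higher in the medulla than in the cortex, by a median of 1.14 in log2 CPM, with 7 lower there. The 35 differed by a median of -0.48, with 22 lower in medullary tubules. Median log2 fold changes of the original lists moved from 1.34 to 1.07 and from -1.15 to -0.85. The lists were also read within 1 region type, where their direction is largely fixed because the same segments chose them. In the cortex, 382 of 386 were above 0 (median 1.34), beside 48.7% of all 13903 probes, and 134 of 134 below (median -0.84), beside 51.3%. In the medulla, 381 of 386 were above 0 (median 0.86), beside 47.0%, and 124 of 134 below (median -0.77), beside 53.0%. Summed regions of the cortex alone gave 279 calls higher in IBA1 and 33 higher in PanCK, and the medulla alone, with 1 region per section, 51 and 24.

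**Figure D2:**
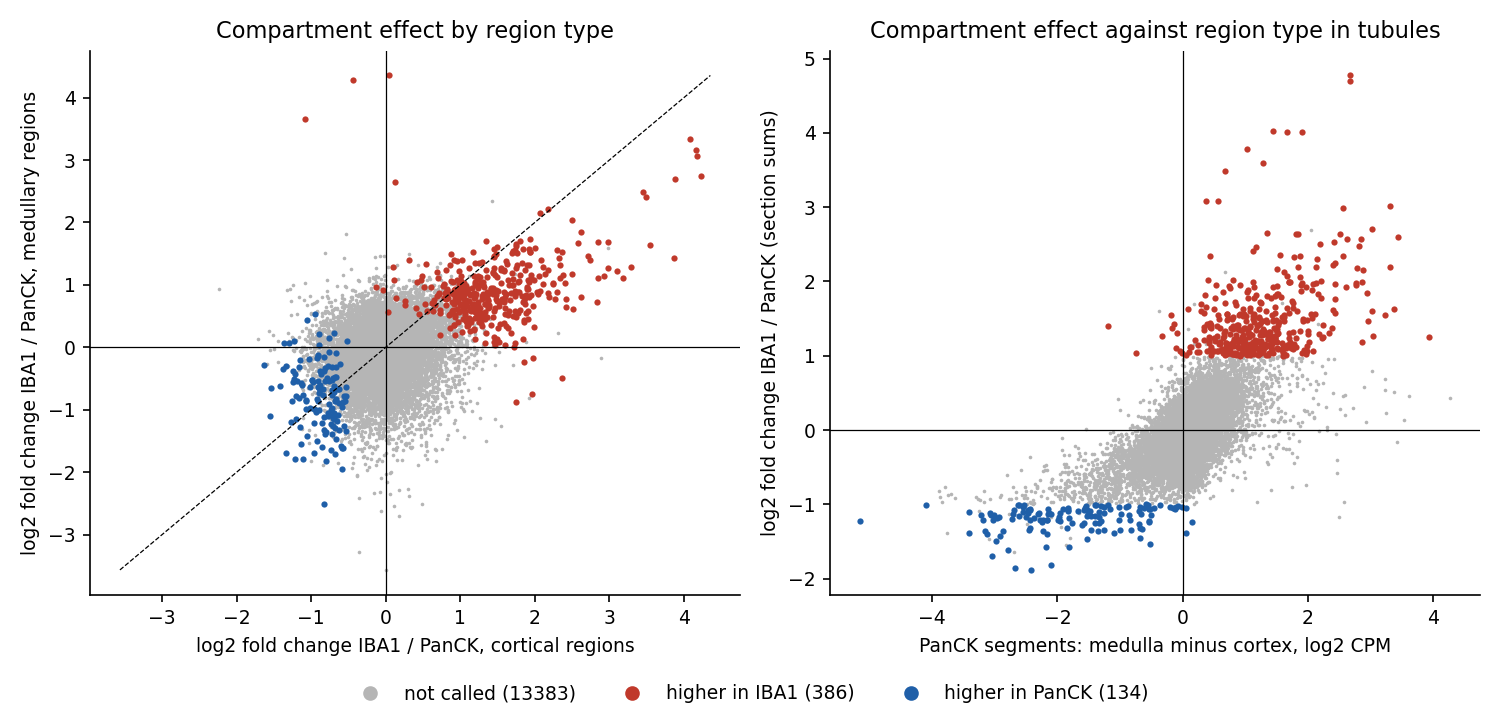
Left, log2 fold change IBA1 / PanCK in medullary against cortical regions of vehicle day 1, 1 point per probe, with the line of equal effects dashed; right, log2 fold change of the section sums against the medulla minus cortex difference of the PanCK segments in log2 CPM. Macrophage-high probes (red, median 1.20) lie mostly to the right of 0 and tubule-high probes (blue, median -1.64) to the left in the right panel.

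Region by region, the paired difference of log2 CPM (prior count 2, IBA1 minus PanCK) showed how far the calls were shared. Of all 13903 probes, 603 (4.34%) were higher in the IBA1 segment in 6 of 6 regions and 515 (3.70%) lower in 6 of 6. The balance turned with the scaling: 464 were higher and 769 lower when segments were scaled by the upper quartile. It moved with the depth too: 622 were higher and 270 lower after thinning of the PanCK segments. Of the 386 macrophage-high probes, 192 were higher in 6 of 6 regions, 144 in 5, 39 in 4, 9 in 3, and 2 in 2. Of the 134 tubule-high probes, 70 were lower in 6 of 6 regions, 58 in 5, and 6 in 4. When each PanCK segment was thinned to the total of its IBA1 segment, 184 of the 386 and 44 of the 134 had 1 sign in 6 of 6 regions. No p is given for these counts, because the regions of a section are not independent.

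The median of each list was then read in each region. The lists were chosen on these regions, and 466 of the 520 calls were made without E2 but 91 without E1, so higher values in E1 follow in part from the choice. The median paired difference of the 386 macrophage-high probes was 1.55 and 1.77 in the cortical regions 004 and 006 of section E1, and 1.17 in its medullary region 005. In section E2 it was 1.11 and 0.64 in the cortical regions 002 and 003, and 0.32 in the medullary region 001. All 3 medians of E1 lay above all 3 of E2. The 134 tubule-high probes had medians of -0.92, -1.32, and -0.73 in E1 and -0.87, -0.32, and -0.90 in E2, in the same order of regions, so here the sections overlapped. All 13903 probes had medians between -0.08 and 0.04 in the 6 regions. Their section means of the paired difference had an r of 0.20 between E1 and E2, and their region type means an r of 0.23 between cortex and medulla, across probes that are not independent and at unequal depth.

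**Figure D3:**
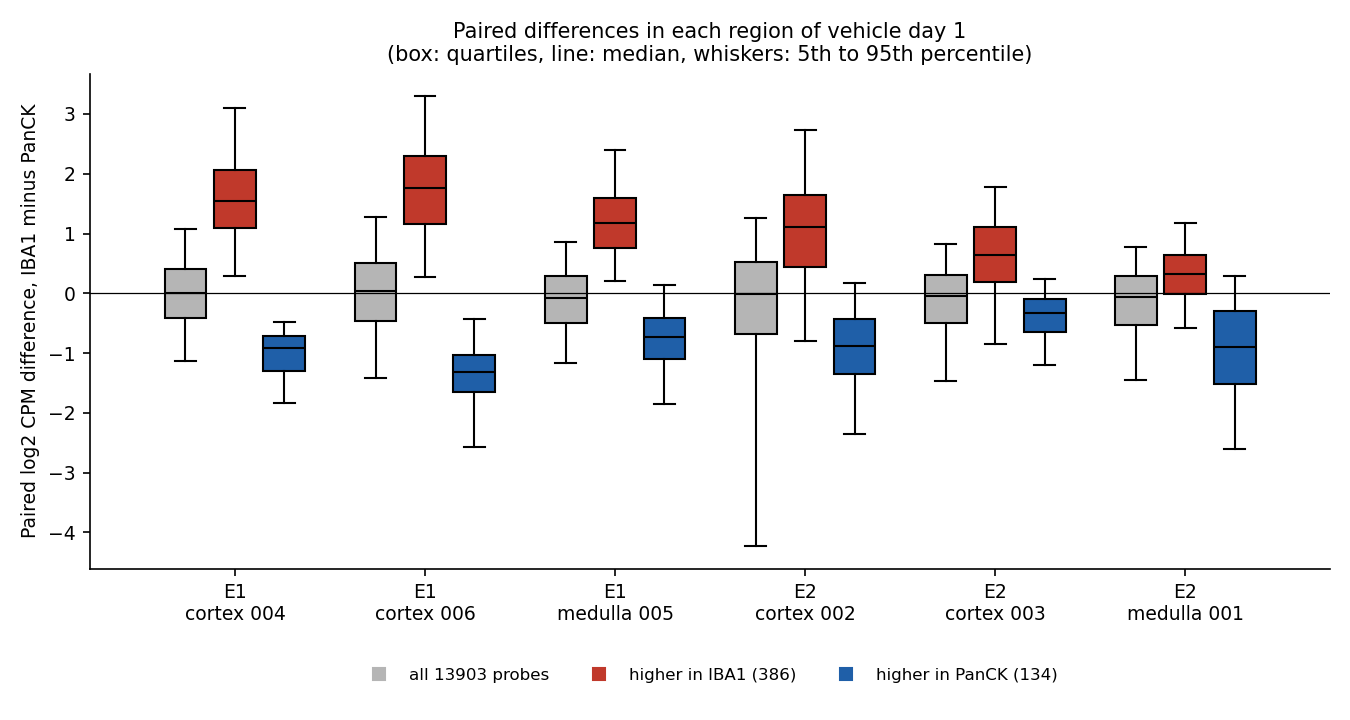
Paired difference of log2 CPM, IBA1 minus PanCK, in each of the 6 regions, with boxes for the quartiles, a line for the median, and whiskers from the 5th to the 95th percentile. The macrophage-high medians go from 1.77 in E1 cortex 006 to 0.32 in E2 medulla 001, and the long lower whisker of E2 cortex 002 belongs to the IBA1 segment of 80096 counts.

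The probes with the smallest adjusted p among those with 1 sign in 6 of 6 regions were then described in each segment. RTS0067288 had 152.4, 141.9, and 133.6 CPM in the IBA1 segments of regions 004, 006, and 005 of section E1, and 49.9, 85.5, and 97.1 CPM in regions 002, 003, and 001 of E2. In the PanCK segments of these regions it had 15.4, 12.9, 32.7, 16.2, 14.1, and 46.1 CPM. All 6 macrophage values lay above all 6 tubular values, and tubules of the medulla had the 2 highest of the latter. These levels rest on 4 to 42 counts in an IBA1 segment. Its log2 fold change was 2.65 (SE 0.21, adjusted p = 8.68e-12, edgeR), with 2.98 (SE 0.27) in the cortex and 1.69 (SE 0.29) in the medulla, and 2.33 (SE 0.20, adjusted p = 4.77e-16) with the region types weighted equally.

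RTS0066969 was more abundant and more regional. Its IBA1 segments had 201.8, 302.4, and 384.9 CPM in regions 004, 006, and 005 and 174.8, 186.9, and 490.7 CPM in regions 002, 003, and 001. Its PanCK segments had 30.2, 29.7, 164.2, 35.7, 42.7, and 406.4 CPM. The medullary segments were the highest in either compartment, and the medullary tubules of E2 lay above all 4 cortical macrophage segments, so the compartments overlapped across regions though not within any. Its log2 fold change was 2.15 (SE 0.18, adjusted p = 8.68e-12, edgeR), 2.61 (SE 0.37) in the cortex and 0.80 (SE 0.33) in the medulla. With the 12 segments in the fit and the region as block it was 1.83 (SE 0.43, adjusted p = 0.0979, edgeR), which was not called, in a fit that treats regions of 1 section as independent. The difference between its medullary and its cortical effect was not called (-1.81, SE 0.49, adjusted p = 0.564, edgeR).

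On the tubular side, RTS0066673 varied more between regions than between compartments. Its PanCK segments had 109.5, 91.7, and 79.4 CPM in regions 004, 006, and 005 of E1 and 797.2, 401.1, and 22.7 CPM in regions 002, 003, and 001 of E2. Its IBA1 segments had 57.7, 67.9, 41.3, 312.1, 235.0, and 16.2 CPM. The macrophage segment was the lower one in every region, while the cortical macrophage segments of E2 lay above all tubular segments of E1. Its log2 fold change was -1.35 (SE 0.20, adjusted p = 3.65e-06, edgeR) in the sums, but -0.92 (SE 0.23) in the cortex and -0.83 (SE 0.42) in the medulla, and -0.88 (SE 0.23, adjusted p = 0.018) with equal weights, where it no longer passed the fold threshold. Without section E2 it was -0.88 (adjusted p = 0.0566, edgeR) and without region 001 it was -0.97, and neither was called. The summed value thus lay below both region-type values.

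RTS0061364 was a cortical probe in both compartments. Its PanCK segments had 222.9, 252.5, 195.3, and 227.0 CPM in the cortical regions 004, 006, 002, and 003, and 24.1 and 30.8 CPM in the medullary regions 005 and 001. Its IBA1 segments had 135.9, 67.9, 62.4, and 165.6 CPM in the cortex and 9.5 and 5.4 CPM in the medulla, the last 2 from 3 counts and 1 count. Cortical tubules and cortical macrophage segments did not overlap, and neither did the medullary ones. Its log2 fold change was -1.50 (SE 0.23, adjusted p = 1.33e-05, edgeR), -0.96 (SE 0.29) in the cortex, -1.69 (SE 0.80) in the medulla, and -1.33 (SE 0.41, adjusted p = 0.0733) with equal weights, where it was not called. Without section E1 it was -1.30 (adjusted p = 0.0667, edgeR).

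**Figure D4:**
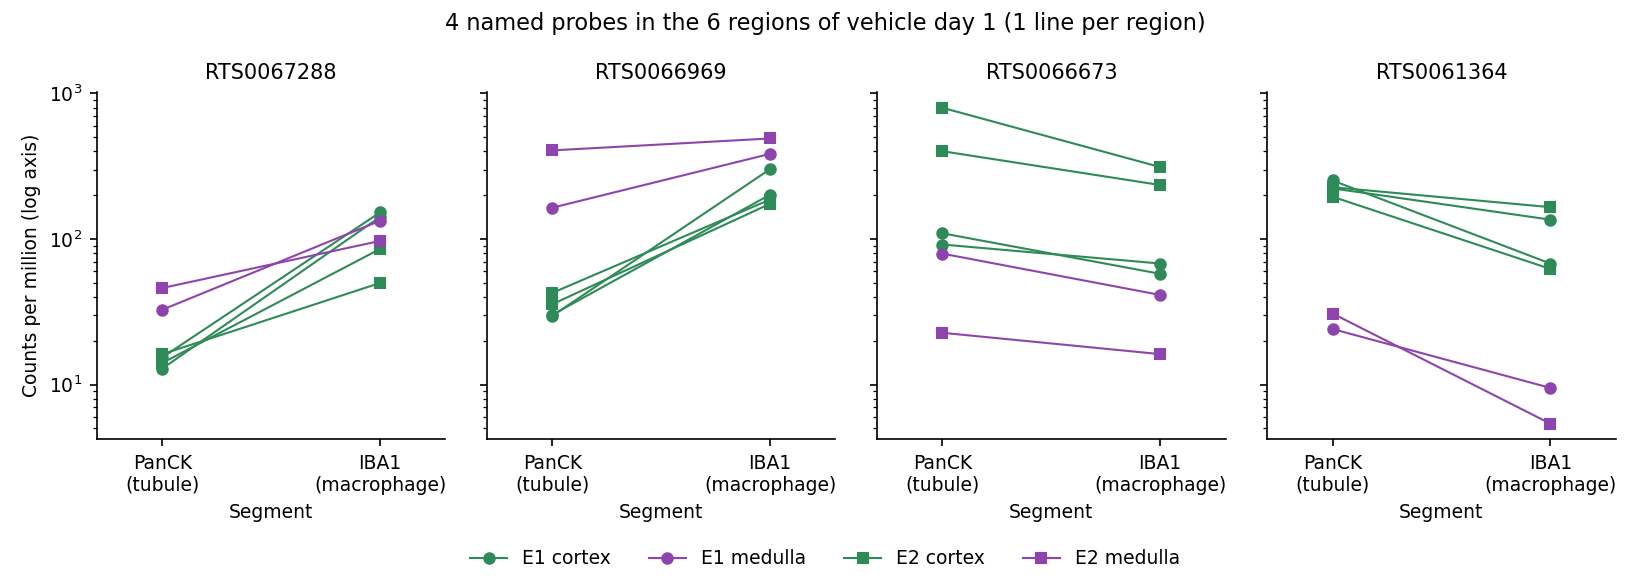
CPM (log axis) of the 4 probes named by rule in the PanCK and IBA1 segments, 1 line per region, with cortex in green, medulla in purple, E1 as circles, and E2 as squares. Lines for RTS0067288 and RTS0066969 go up in 6 of 6 regions and those for RTS0066673 and RTS0061364 go down in 6 of 6, and the tubular levels of cortex and medulla do not overlap for any of the 4.

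Whether the compartment difference depended on the region type was tested on sums per section, region type, and compartment. Of 20175 probes, 5 (0.0248%) had a different effect in medulla and cortex by edgeR's quasi-likelihood test, 1 with a higher and 4 with a lower IBA1 / PanCK fold change in the medulla, and 1030 had an unadjusted p under 0.05. The number was 2 without either section and 1 with TMM normalization. Of these 5, 3 are described here, chosen after their values were seen. RTS0065041 had 222.1 to 461.9 CPM in cortical IBA1 and 352.8 to 434.7 CPM in cortical PanCK segments, which overlapped, but 489.8 and 221.1 CPM in medullary IBA1 against 152.9 and 110.9 CPM in medullary PanCK segments. The effects differed by 1.58 (SE 0.31, adjusted p = 0.00644, edgeR), the 1 call with a higher fold change in the medulla. This call was lost with TMM, where the 1 probe called was lower in the medulla, and with no block, which gave 0 calls. RTS0064673 went the other way, with paired differences of 0.86, 0.14, 1.25, and 1.28 in the cortex and -0.87 and -1.34 in the medulla, a difference of -2.08 (SE 0.32, adjusted p = 6.13e-05, edgeR). RTS0077444 had paired differences of 1.47 to 2.48 in the cortex and 0.55 and -0.31 in the medulla, a difference of -1.70 (SE 0.32, adjusted p = 0.00644, edgeR).

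The lists were next read in the other groups, whose sums entered the estimate of the spread but not the contrast that chose the lists. In uninjured control kidneys, 359 of the 386 macrophage-high probes (93.0%) were also above 0, beside 42.0% of all 13903 probes, with a median log2 fold change of 1.08. There 96 of the 386 were called in the same direction, in a group where 0.808% of all probes were called higher in IBA1. Of the 134 tubule-high probes, 131 (97.8%) were below 0, beside 58.0% of all probes, and 17 were called, against a background of 0.203%. The control IBA1 sums held 159453 and 298063 counts, fewer than the 719242 and 452768 of vehicle day 1, and fewer calls at that depth do not show a smaller difference.

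In entospletinib-treated kidneys on day 1, of the 386 probes, 380 (98.4%) were above 0, beside 42.7% of all 13903 probes, with a median of 1.03, and 161 were called, against 0.971% of all probes. Of the 134 tubule-high probes 129 (96.3%) were below 0, beside 57.3%, with a median of -0.46, and 3 were called, against 0.0545%. On day 14 after IRI in vehicle-treated kidneys, 378 of 386 (97.9%) were above 0, beside 54.0%, with a median of 1.14, and 224 were called, against 2.07%. Of the 134, 128 (95.5%) were below 0, beside 46.0%, with a median of -1.21, and 88 were called, against 2.05%. The day 14 IBA1 sums held 2773456 and 2024256 counts, more than those of vehicle day 1. More calls at that depth do not show that more of the difference was shared. A single probe of the 386 was called in the opposite direction on day 14. The weight of the medulla in the sums of these groups was not made equal. With equal weights, 186, 199, and 200 of the 200 probes called higher in IBA1 that way were above 0 in control, entospletinib day 1, and vehicle day 14 kidneys, beside 37.9%, 35.6%, and 49.8% of all 13903 probes. Of the 35 called higher in PanCK, 32, 33, and 30 were below 0, beside 62.1%, 64.4%, and 50.2%.

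**Figure D5:**
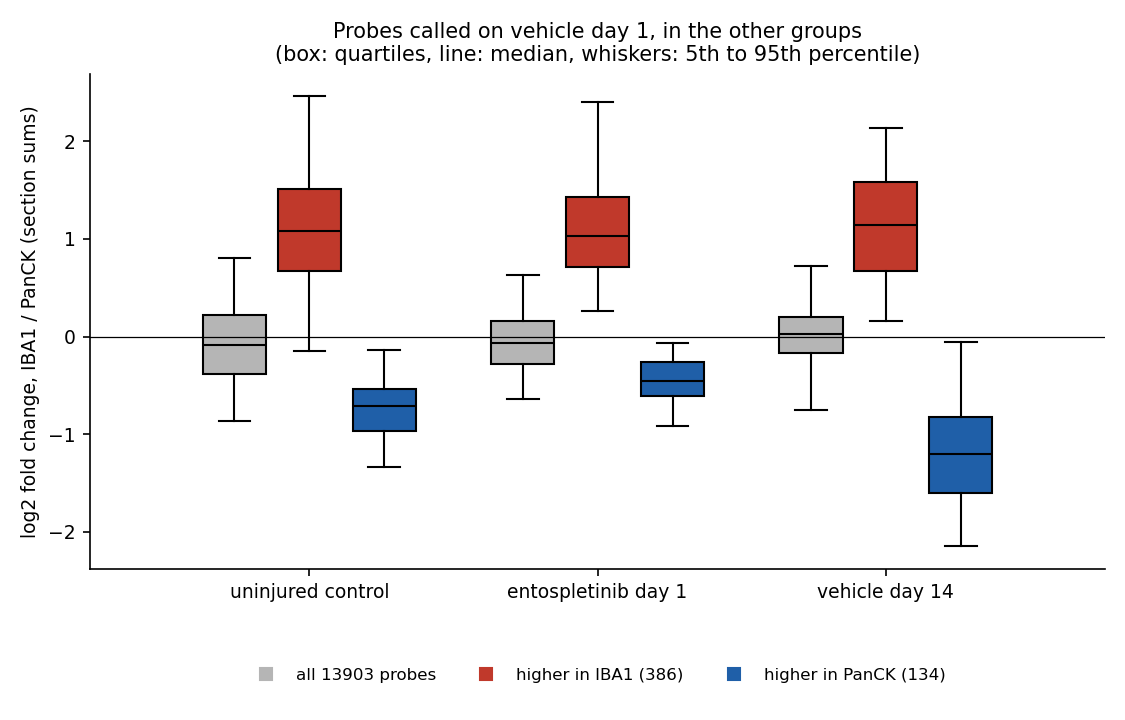
Log2 fold change IBA1 / PanCK of the section sums in 3 other groups, with boxes for the quartiles and whiskers from the 5th to the 95th percentile, for all 13903 probes (gray), the 386 macrophage-high (red), and the 134 tubule-high probes (blue) of vehicle day 1. The red medians are 1.08, 1.03, and 1.14 and the blue medians -0.71, -0.46, and -1.21, from left to right.

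The difference of the compartment effect itself was tested against each group, and the 3 tests share the vehicle day 1 sums. Against uninjured controls 1 of 20175 probes (0.00496%) was called by edgeR at an adjusted p under 0.05, with 1228 at an unadjusted p under 0.05. DESeq2 called 10 of the 1009 probes that its own filter kept, 9 of them with a higher fold change on day 1. The probe called by edgeR, RTS0066542, had 72.3 and 35.3 CPM in the IBA1 sums and 49.0 and 36.3 CPM in the PanCK sums of vehicle day 1. In control kidneys it had 338.7 and 499.9 CPM in IBA1 sums and 80.6 and 102.7 CPM in PanCK sums. Its log2 fold change between the compartments was 0.31 (SE 0.24) on day 1 and 2.05 (SE 0.19) in controls, a difference of -1.74 (adjusted p = 0.00774, edgeR). This call was lost without either vehicle day 1 section: without E1 the test called 1 probe and without E2 it called 2, all with a higher fold change on day 1. It was also lost in the cortex alone and with no section block, which gave 0 calls. Its IBA1 level was 90.8 and 61.8 CPM on day 1 with entospletinib and 311.9 and 133.4 CPM on day 14 with vehicle, so both day 1 groups lay below the control and the day 14 sums. Fewer cells that carry a transcript and less RNA per cell cannot be told apart in such segments.

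Against entospletinib-treated kidneys on day 1, 0 probes (0.0%) were called by edgeR, and DESeq2 on the same sums called 0 too. The unadjusted p of edgeR was under 0.05 for 1041. Each group had 2 sections, and 0 calls do not show that vehicle- and entospletinib-treated kidneys had like compartment differences.

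Against vehicle-treated kidneys on day 14, 135 probes (0.669%) differed. The IBA1 / PanCK fold change was higher on day 1 for 96 and lower on day 1 for 39. This split moved with the scaling and the tool, to 225 and 26 with TMM and 123 and 94 with the region types weighted equally. It was 137 and 4 by DESeq2, whose filter kept 4920 probes. Of the 96, 35 were called higher in IBA1 on day 1 and 40 were called higher in PanCK on day 14, and 51 had opposite signs on the 2 days. Their median log2 fold change was 0.65 on day 1 and -0.59 on day 14. Of the 39, 7 were called higher in PanCK on day 1, 17 were called higher in IBA1 on day 14, and 31 had opposite signs, with medians of -0.42 and 0.92. Among the named probes, RTS0067288 fell in this set, with 2.65 on day 1 and 1.48 (SE 0.14) on day 14, a difference of 1.17 (adjusted p = 0.00596, edgeR). It had 141.8 and 83.9 CPM in IBA1 sums on day 1 and 85.1 and 97.3 CPM on day 14, which overlap, while its PanCK sums went from 17.4 and 18.5 to 29.0 and 40.3 CPM. The higher ratio on day 1 thus lay beside lower tubular levels, with overlapping macrophage levels. The day 14 sections held equal numbers of cortical and medullary regions and those of day 1 did not, so day and region mix cannot be told apart in this number. It was 133 in cortical regions alone, 43 in medullary regions alone, 217 with the region types weighted equally, 37 without vehicle day 1 section E1, and 46 without day 14 section E2.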

How the data were processed

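FFPE kidney sections were profiled with the GeoMx Mouse Whole Transcriptome Atlas. The authors deposited whole counts of unique molecular identifiers per probe for each segment, made from the reads by the GeoMx NGS Pipeline (version 3.1.1.5 in the file headers), before their background evaluation, probe aggregation, and normalization. The same counts stand in 13 files entered under another unit because of their layout.

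Members, lists, and tests were chosen with earlier results of these data known. Counts of all 94 segments were summed to 28 sums (14 sections, 2 compartments), normalized by the upper quartile, and fitted with edgeR 4.0.16 (R 4.3.3; filterByExpr kept all 20175 probes; robust quasi-likelihood; section as block; compartment effect per group; 7 residual degrees of freedom, and a median of 41.07 prior degrees of freedom). SE was taken as the size of a log2 fold change over the root of its F statistic. For a difference between 2 effects, calls used no fold threshold. Region types used 56 sums and 14 residual degrees of freedom. Labels pair segments of a region. Deviations of the 2 segments of a region from their compartment means had r of 0.06 to 0.28. Between segments of different regions r reached 0.22 (median -0.03), so the ranges overlap. Of the 6 IBA1 segments, 4 had their highest such r with their own region. Named probes are the 2 higher and 2 lower in IBA1 with the smallest adjusted p among called probes with 20 or more IBA1 counts and 1 sign in 6 of 6 regions. The study used regions as replicates, tried here with DESeq2 1.42.0. Regions of a section are not independent, so that p does not measure the spread between sections. Tests were tried on simulated counts with a common mean profile and a fixed spread, without section or region differences. That setting does not show how the tests perform on these data. Alternatives were TMM, DESeq2, other filters, thinning, no block, single region types, and leaving out sections or regions. Counts limit precision: IBA1 segments held 80096 counts or more, and intervals were not computed. Drawing used matplotlib 3.10.9.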

Additional observations from a re-analysis of the deposited data

Results flagged for a closer look

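In 6 of 37 sets of 6 regional values, the highest or lowest value stood apart by Dixon's criterion, which chance alone meets in about 1 set in 20. The probes among them that the named-probe rule did not choose were picked after their values were seen. RTS0066969 had 406.4 CPM in the PanCK segment of E2 medulla 001. RTS0066542 had 154.3 CPM in the IBA1 segment of E1 cortex 006. RTS0064673 had 2436.3 CPM in the IBA1 and 4458.8 CPM in the PanCK segment of E1 medulla 005. RTS0077444 had 512.3 CPM in the IBA1 and 637.1 CPM in the PanCK segment of E2 medulla 001. All but the value of RTS0066542 belong to medullary regions, of which there were 2 among the 6. RTS0064673 and RTS0077444 were picked because their compartment effect differed between medulla and cortex. Their medullary values here are therefore no separate finding.

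The compartment effect of vehicle day 1 differed by edgeR's test of the difference for 1 probe from uninjured control (RTS0066542, by -1.74), for 135 probes from vehicle day 14, among them RTS0067288 by 1.17 and RTS0064673 by 1.47, and for 5 probes between medulla and cortex, among them RTS0065041 by 1.58, RTS0064673 by -2.08, and RTS0077444 by -1.70. The part of the region mix in the day 14 difference was not tested. The number was 133 in cortical regions alone, 43 in medullary regions alone, and 217 with the region types weighted equally.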

How the results depend on the processing

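The total of 520 calls stayed within 1.5 times under TMM, DESeq2 on the sums, the filter alternatives, the vehicle day 1 sums alone, and thinning of the PanCK sums. It moved to 1194 on adjusted p alone, 329 with no replicate block, 219 with the 12 segments and the region as block, 201 by DESeq2 with regions as replicates, 312 in the cortex, 75 in the medulla, and 235 with the region types weighted equally. Leaving out a section gave 103 to 806 and a region 394 to 749. For the control difference of 1 probe, DESeq2 gave 10 of the 1009 probes that its filter kept, 9 of them in the opposite direction. No block gave 0, the cortex 0, the medulla 2, equal weights 4, and leaving out a section 1 to 2. The calls without either vehicle day 1 section were in the opposite direction and so not the same probe. For the entospletinib difference of 0 probes, the medulla gave 1 and leaving out a section 0 to 2. For the day 14 difference of 135, TMM gave 251, no block 0, the medulla 43, equal weights 217, and leaving out a section 37 to 122. The medulla-cortex difference of 5 was 1 with TMM, 0 with no block, and 2 without either section. The 1118 probes with 1 sign in 6 regions became 3944 to 4979 with 3 of 3 regions. The causes were not tested, beyond the fewer regions that these last 2 and the single region types hold. Of the named probes, RTS0067288 was called under all 20 alternatives, RTS0066969 under 17, RTS0061364 under 14, and RTS0066673 under 12. None changed direction under any of the 20, but the rule that chose them required 1 sign in 6 of 6 regions. Their direction was thus largely fixed in advance. Depth limits the macrophage segments most.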
